A study of Homo sapiens with 6 samples.

Results

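The genes described here are 10 markers and regulators of the epithelial to mesenchymal transition (EMT), namely CDH1, CDH2, EPCAM, VIM, FN1, ZEB1, ZEB2, SNAI1, SNAI2 and TWIST1. They were chosen by their symbol among the 32192 genes of a table of read counts and the 31951 genes of a table of FPKM (fragments scaled to transcript length and to the number of mapped fragments), and all 10 were found in both tables. RNA-seq was performed in A549 cells, an established line from a human lung adenocarcinoma, grown in DMEM with 10% fetal bovine serum. APEX1-OE cells were transiently transfected with the pIRES-hrGFP-1a vector carrying the APEX1 coding sequence with a FLAG tag, and Ctrl cells with the control plasmid. Each group had 3 libraries, and neither the time of RNA collection nor the share of transfected cells is stated. Nothing in the labels says whether the replicates came from separate cultures, so that the p values measure the spread between these libraries.

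EMT is the process in which epithelial cells lose the junctions to their neighbours and gain a motile, matrix-producing state. E-cadherin (CDH1) and EPCAM hold epithelial cells together, whereas N-cadherin (CDH2), the intermediate filament vimentin (VIM) and the matrix protein fibronectin (FN1) mark the mesenchymal state. The zinc finger proteins ZEB1, ZEB2, SNAI1 (Snail) and SNAI2 (Slug) repress epithelial genes such as CDH1 by binding E-boxes in their promoters, and the basic helix-loop-helix protein TWIST1 is a further inducer of the process. A549 cells are known for carrying epithelial and mesenchymal markers at the same time.

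The E-box letters read by these repressors are shown for ZEB1, the member that varied most between libraries. RefSeq promoter windows (GRCh38.p14, 250 bases before to 50 after a start site) were at hand for ZEB1, ZEB2, VIM, FN1 and CDH2, and not for CDH1, EPCAM, SNAI1, SNAI2 and TWIST1. CACCTG or its reverse complement CAGGTG, which are the same site read on opposite strands, occurred in 20.6% of 35116 such windows of all genes. The windows of ZEB2, VIM, FN1 and CDH2 held no such letters, and those of the 7 start sites of ZEB1 held 4 sites, of which the following 3 lie before their start site. These 4 are sites and not windows, so that they cannot be set against the 20.6%, which counts windows. The first, at chr10:31318348-31318377 (plus strand), is outside the annotated gene, and its E-box begins 57 bases before a start site. The second, at chr10:31318966-31318991, and the third, at chr10:31319119-31319148 (both plus strand), are in exons of transcripts other than the canonical one. Their E-boxes begin 242 and 85 bases before the same start site, and the site that is not printed lies in that same window. The 6 letters searched for are in capitals, and a match is not evidence of binding.
ZEB1 site at -57: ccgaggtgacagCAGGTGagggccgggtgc
ZEB1 site at -242: ccccaccaCACCTGaggaaaactttt
ZEB1 site at -85: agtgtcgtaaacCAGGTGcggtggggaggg

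Values of single libraries are given in the order of replicates 1, 2 and 3 of each group. Overexpression was seen in every library: APEX1 stood at 618, 680.3 and 768 FPKM with APEX1-OE, against 129, 126 and 124 FPKM with Ctrl. Total counts per library lay between 28131955 and 41009197. The libraries also fell into sets that do not follow the condition, since the first principal component of log2 CPM (counts scaled to library size) held 72.6% of the variance and separated a first set, made of the first APEX1-OE replicate with Ctrl replicates 1 and 2, from a second set, made of APEX1-OE replicates 2 and 3 with the third Ctrl replicate. Because this split touches most of the genes described, values are given for each library and with and without the set as a term. Of the 6 epithelial markers, KRT8, KRT18 and KRT7 had mean levels of 3046, 2464 and 2007 FPKM over the 6 libraries. The others were lower, with KRT19 at 88.4, CDH1 at 7.97 and EPCAM at 0.342 FPKM. Markers of other cell types were low beside the keratins, though the fibroblast and leukocyte sums below exceeded EPCAM. The summed FPKM of the 6 of 7 fibroblast markers found in that table was 0.87 to 1.45 for APEX1-OE and 0.97 to 1.13 for Ctrl, and that of the 4 endothelial markers was at most 0.06. The 3 of 5 leukocyte markers in that table summed to 2.70 to 4.24 FPKM for APEX1-OE and 3.50 to 4.65 FPKM for Ctrl, carried by CD14 and CD68. COL1A2 and the leukocyte gene PTPRC had at most 1 count in any library.

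The adhesion genes of the epithelial state were low or moderate. CDH1 (ENSG00000039068.18, chr16:68737292-68835537, plus strand, GRCh38) was at 4.52, 7.97 and 10.7 FPKM with APEX1-OE, against 6.93, 7.16 and 10.6 FPKM with Ctrl. The lowest and the highest library were both APEX1-OE, and the groups overlapped. EPCAM (ENSG00000119888.10, chr2:47345158-47387601, plus strand) was at 0.25, 0.34 and 0.51 FPKM with APEX1-OE, against 0.25, 0.18 and 0.52 FPKM with Ctrl. The gene of this epithelial surface protein had the lowest mean of the 10 genes, and it rested on 15 to 47 counts per library. The lowest of these counts, 15 in Ctrl replicate 2, has an exact 95% Poisson interval of 8.40 to 24.7, which covers counting error only.

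Of the mesenchymal markers, VIM and FN1 were far more abundant than CDH1, and CDH2 was closer to it. VIM (ENSG00000026025.13, chr10:17228241-17237593, plus strand) was at 188, 255 and 257 FPKM with APEX1-OE, against 219.7, 214.9 and 227 FPKM with Ctrl. All 3 Ctrl libraries lay inside the range of the APEX1-OE libraries. FN1 (ENSG00000115414.18, chr2:215360440-215436073, minus strand) was at 59.2, 133 and 161 FPKM with APEX1-OE, against 96.2, 97.0 and 164 FPKM with Ctrl. CDH2 (ENSG00000170558.8, chr18:27932879-28177946, minus strand) was at 7.80, 19.1 and 20.1 FPKM with APEX1-OE, against 9.57, 11.2 and 19.3 FPKM with Ctrl. For FN1 and CDH2 the library with the lowest value was APEX1-OE replicate 1, and Ctrl replicate 3 stood with APEX1-OE replicates 2 and 3.

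The transcription factors were present at a few FPKM or less. SNAI1 (ENSG00000124216.3, chr20:49982980-49988886, plus strand) was the most abundant, at 3.85, 3.55 and 3.07 FPKM with APEX1-OE, against 3.92, 3.96 and 3.22 FPKM with Ctrl. It was lowest in APEX1-OE replicate 3 and Ctrl replicate 3, the reverse of what was seen for CDH2. TWIST1 (ENSG00000122691.12, chr7:19020991-19117636, minus strand) was at 1.49, 1.85 and 2.32 FPKM with APEX1-OE, against 2.52, 1.95 and 2.05 FPKM with Ctrl, with overlapping groups.

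ZEB1 (ENSG00000148516.21, chr10:31318495-31529814, plus strand) was at 0.46, 1.26 and 1.47 FPKM with APEX1-OE, against 0.40, 0.42 and 1.09 FPKM with Ctrl. Its highest library was 3.67 times its lowest, the widest range of the 10 genes, and Ctrl replicate 3 lay well above APEX1-OE replicate 1. ZEB2 (ENSG00000169554.16, chr2:144364364-144521057, minus strand) was at 0.21, 0.50 and 0.52 FPKM with APEX1-OE, against 0.22, 0.25 and 0.47 FPKM with Ctrl, which is the same pattern over the libraries. SNAI2 (ENSG00000019549.8, chr8:48917598-48921740, minus strand) was at 0.65, 1.11 and 1.35 FPKM with APEX1-OE, against 0.41, 0.71 and 0.73 FPKM with Ctrl. Here APEX1-OE replicates 2 and 3 stood above every Ctrl library, while APEX1-OE replicate 1 stood below Ctrl replicates 2 and 3.

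**Figure D1:**
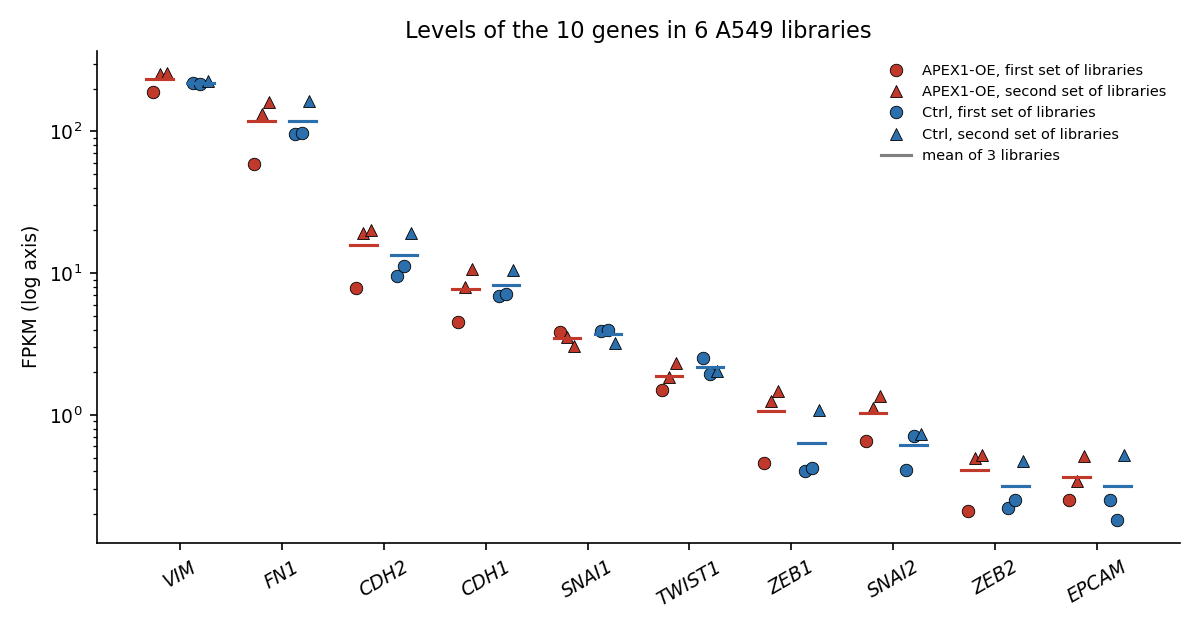
FPKM (log axis) of the 10 genes in each of the 6 libraries, in the order of their mean, with APEX1-OE in red and Ctrl in blue, circles for the first and triangles for the second set of libraries, and a line at the mean of each group of 3 libraries. Triangles lie above circles for VIM, FN1, CDH2, CDH1, ZEB1, SNAI2, ZEB2 and EPCAM in either group, below them for SNAI1, and the groups overlap for every gene.

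Ordered by the mean FPKM over the 6 libraries, the levels were VIM (227 ± 26.1, SD, n = 6), FN1 (118 ± 41.4), CDH2 (14.5 ± 5.59), CDH1 (7.97 ± 2.36), SNAI1 (3.60 ± 0.380), TWIST1 (2.03 ± 0.362), ZEB1 (0.85 ± 0.480), SNAI2 (0.827 ± 0.341), ZEB2 (0.362 ± 0.149) and EPCAM (0.342 ± 0.144). VIM ranked 218th and FN1 444th of the 31951 genes in the FPKM table, and EPCAM ranked 14759th. The ranges over the 6 libraries did not overlap between VIM and FN1, FN1 and CDH2, CDH1 and SNAI1, SNAI1 and TWIST1, or TWIST1 and ZEB1. ZEB1 and SNAI2 were not apart, nor were ZEB2 and EPCAM, each being the higher of the pair in 3 of 6 libraries. CDH2 and CDH1 overlapped in range over the libraries, but CDH2 was the higher within each of the 6. The CDH2 to CDH1 ratio of FPKM was 1.73, 2.40 and 1.88 with APEX1-OE, against 1.38, 1.56 and 1.83 with Ctrl. This ratio, often read as a cadherin switch, overlapped between the groups.

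To determine whether APEX1 overexpression changed these genes, APEX1-OE was compared with Ctrl by edgeR's quasi-likelihood test across all 16971 genes that passed the filter on low counts, among them all 10 members. None of the 10 was called at a Benjamini-Hochberg adjusted p under 0.05, and each had an adjusted p of 1.0. Over all tested genes 1 was called (APEX1), which is 0.00589%. At an unadjusted p under 0.05 the count was 0 of 10 in edgeR, against 0.695% of all tested genes. So few genes reached that threshold in this fit that 0 of 10 says little about these genes. With the set of libraries as a term, described below, the share of all tested genes was 11.6%. DESeq2 also called 0 of 10, with SNAI2 alone at an unadjusted p under 0.05, and limma on log2(FPKM + 1) had 0 at either threshold. The groups overlapped in CPM for all 10 genes, whereas they did not overlap for 3.39% of all tested genes. The smallest exact two-sided permutation p on the FPKM values was 0.2, for ZEB1, where 3 libraries against 3 allow none under 0.1.

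Estimates for the mesenchymal and epithelial effectors lay near 0. The log2 fold change of VIM was 0.05 with a 95% interval of -0.32 to 0.43, from group means of 605 ± 43.7 and 582 ± 18.5 CPM (SD, n = 3 each). For FN1 it was -0.06 (-0.80 to 0.69) and for CDH2 0.19 (-0.61 to 1.00). For CDH1 it was -0.13 (-0.78 to 0.53) and for EPCAM 0.20 (-0.75 to 1.14). Only the interval of VIM left out a 1.5-fold change in either direction; for the other genes a change of that size in at least 1 direction lay within the interval.

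Among the transcription factors, ZEB1 and SNAI2 had the highest estimates. The log2 fold change of ZEB1 was 0.71 with a 95% interval of -0.38 to 1.79, with means of 8.11 ± 3.53 CPM (APEX1-OE) against 4.96 ± 2.70 CPM (Ctrl), each with its SD over 3 libraries. That of SNAI2 was 0.70 with an interval of -0.02 to 1.42, with means of 2.84 ± 0.732 CPM (APEX1-OE) against 1.74 ± 0.483 CPM (Ctrl). SNAI2 came nearest to the unadjusted threshold in edgeR (unadjusted p = 0.0549, adjusted p = 1.0). It rested on 32 to 130 counts per library. ZEB2 was at 0.35 (-0.51 to 1.21), SNAI1 at -0.09 (-0.69 to 0.51) and TWIST1 at -0.24 (-0.79 to 0.32). The median log2 fold change of the 10 genes was 0.12, against 0.03 over all tested genes. With the set of libraries as a term these medians were -0.013 and 0.0081.

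**Figure D2:**
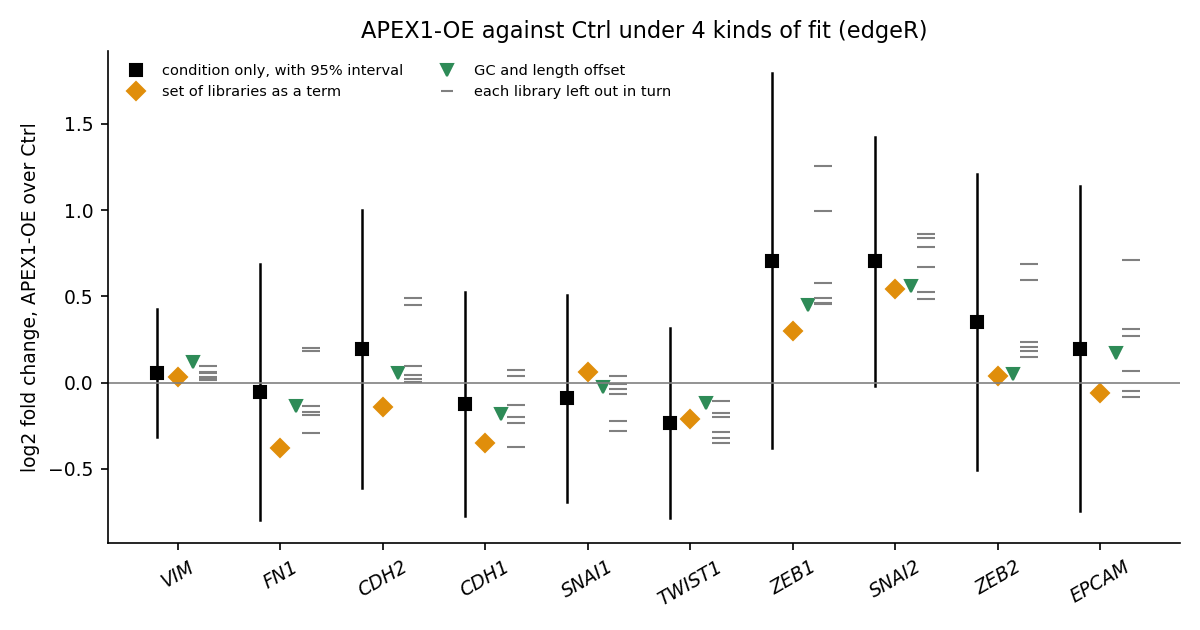
log2 fold change of APEX1-OE over Ctrl for each gene in edgeR, with black squares and 95% intervals for the fit with the condition alone, orange diamonds with the set of libraries as a term, green triangles with a GC and length offset, and grey dashes with each library left out in turn. Every interval crosses 0. ZEB1, SNAI2, ZEB2 and VIM are above 0 under each of these fits, and TWIST1 is below 0 under each.

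The larger differences lay between the sets of libraries. CDH1, CDH2, EPCAM, FN1, ZEB1 and ZEB2 were higher in CPM in each library of the second set than in any of the first, 6 of 10 genes against 35.5% of all tested genes. SNAI1 was lower in each library of the second set, 1 of 10 against 30.9% (7 of 10 against 66.4% in either direction), and VIM, SNAI2 and TWIST1 overlapped, all in CPM. In FPKM, the sets were apart for VIM and SNAI2 as well, higher in the second set. In mean CPM the second set was 2.60 times the first for ZEB1 (9.43 against 3.63), 1.92 times for ZEB2 (7.09 against 3.70), 1.81 times for CDH2 (99.96 against 55.2), 1.61 times for FN1 (1599 against 996) and 1.39 times for CDH1 (55.8 against 40.2). For SNAI1 it was 0.738 times (6.37 against 8.64) and for VIM 1.05 times (607 against 580.1). Epithelial CDH1 and its repressors ZEB1 and ZEB2 stood high in the same libraries. These values are a description with no test, since the sets were found in the same counts.

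GC content moved with this split. Across tested genes with a GC value (16746 of them), the difference in log2 CPM between the second and the first set had a Pearson r of -0.785 with the GC content of the canonical transcript; genes share the libraries and are not independent. ZEB1 (38.9% GC) and ZEB2 (39.0%) fell in the second lowest decile of genes by GC, where the median difference was 0.79 with quartiles of 0.51 and 1.03, and their own differences were 1.36 and 0.93. SNAI1 (58.4%) was at -0.44, and the median of its decile was -0.41. FN1 (50.8%) was at 0.70 and VIM (54.3%) at 0.06, both above the upper quartile of their deciles (0.20 and -0.03). EPCAM (0.77 against 0.69) and TWIST1 (-0.09 against -0.22) were also above the upper quartile of theirs, as was ZEB1. The remaining genes lay between the quartiles of their deciles. After adding an offset for GC content and transcript length, the difference between the sets fell to 0.45 for ZEB1, 0.27 for CDH2, 0.19 for CDH1 and -0.06 for ZEB2. It then stood at 0.47 for EPCAM, 0.44 for FN1, 0.12 for SNAI2 and 0.07 for SNAI1, while it rose to 0.36 for both VIM and TWIST1, and the sets did not overlap for 3 of the 10 genes, CDH2, FN1 and VIM, against 39.1% of the tested genes with a GC value. The part of GC content in the comparison of APEX1-OE with Ctrl was not tested beyond these fits.

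**Figure D3:**
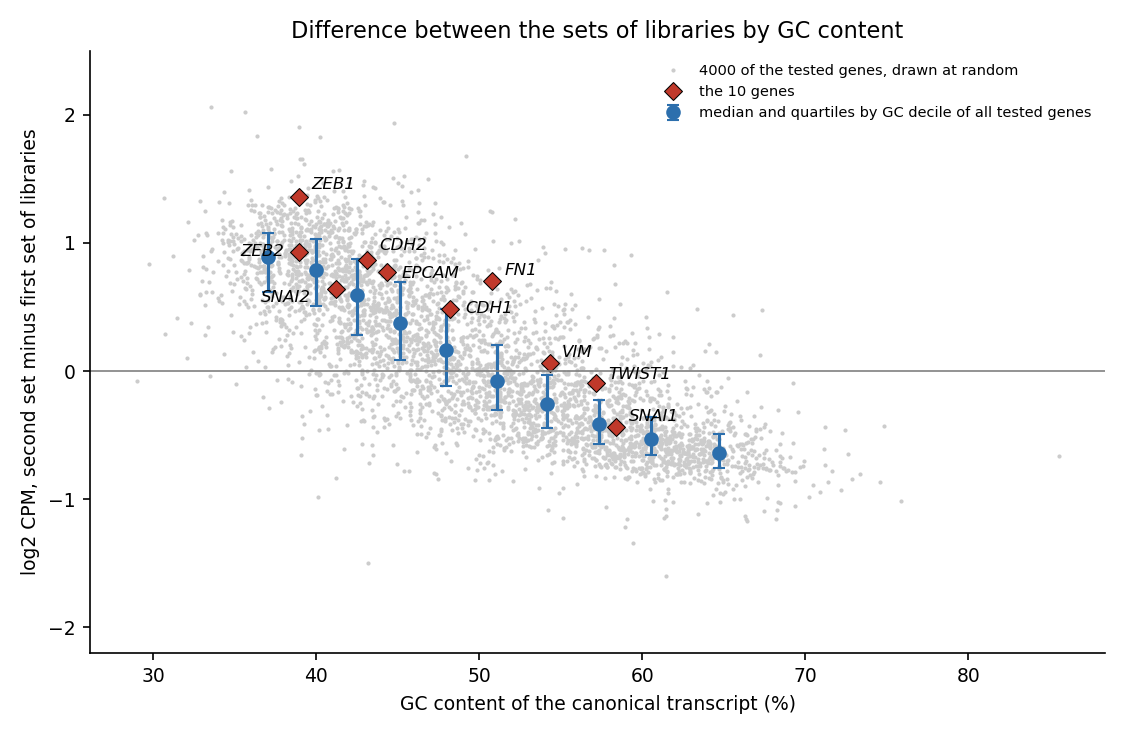
Difference in log2 CPM between the second and the first set of libraries against the GC content (%) of the canonical transcript, for a random draw of tested genes (grey), the median and quartiles of each decile of all tested genes by GC (blue) and the 10 genes (red diamonds). The difference falls with GC content, ZEB1 lies at the top left at 1.36, SNAI1 at the lower right at -0.44, and ZEB1, EPCAM, FN1, VIM and TWIST1 lie above the quartiles of their deciles.

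Since APEX1-OE held 1 library of the first set and 2 of the second, and Ctrl the reverse, the condition was also compared within each set. SNAI2 was higher in APEX1-OE in both, by a difference in mean log2 CPM of 0.36 in the first set and 0.72 in the second. ZEB1 was likewise higher, by 0.27 and 0.32, and SNAI1 by 0.08 and 0.03, where its estimate without the sets was -0.09. CDH1 was lower in APEX1-OE in both sets (-0.53 and -0.20), as was FN1 (-0.59 and -0.17). Directions differed between the sets for CDH2 (-0.30 and 0.01), EPCAM (0.32 and -0.30), VIM (-0.10 and 0.17), ZEB2 (-0.07 and 0.12) and TWIST1 (-0.46 and 0.0095). Each set compares 1 library with 2 others and allows no test.

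With the set as a term in the edgeR fit, none of the 10 genes was called, against 0.0236% of all tested genes. CDH1 (log2 fold change -0.35, unadjusted p = 0.0123, adjusted p = 0.364), FN1 (-0.38, unadjusted p = 0.00278, adjusted p = 0.350) and SNAI2 (0.54, unadjusted p = 0.0395, adjusted p = 0.409) had an unadjusted p under 0.05, 3 of 10 genes against 11.6% of all tested genes. The estimate of ZEB1 fell to 0.30 (adjusted p = 0.447), and that of CDH2 changed sign to -0.14 (adjusted p = 0.626). With the GC and length offset in place of the set, ZEB1 was at 0.45 and SNAI2 at 0.56, each with an adjusted p of 0.999 in edgeR. Their unadjusted p values in that edgeR fit were 0.0233 and 0.0320, so that 2 of 10 genes were under 0.05, against 3.45% of all tested genes. Without APEX1-OE replicate 1, ZEB1 was at 1.00 (adjusted p = 0.507 in edgeR) and SNAI2 at 0.86, and these 2 of 10 genes had an unadjusted p under 0.05, against 7.61% of all tested genes.

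Other genes of the process were taken from lists by role, 106 genes besides the 10. Of these 105 were in the count table and 89 passed the filter, and edgeR called 0 of them. DESeq2 and limma also called 0. An unadjusted p under 0.05 in edgeR was reached by 3 genes (3.37% of the 89, against 0.695% of all tested genes), and the groups did not overlap in CPM for 3 (3.37% against 3.39%). Among these were KLF4, a transcription factor of epithelial cells, and CLDN7, a tight junction claudin. KLF4 was at 3.44, 4.80 and 3.82 FPKM with APEX1-OE, against 2.46, 2.34 and 2.83 FPKM with Ctrl (log2 fold change 0.64, standard error 0.219, adjusted p = 1.0). CLDN7 was at 0.40, 0.24 and 0.31 FPKM with APEX1-OE, against 0.73, 0.59 and 0.43 FPKM with Ctrl, on 25 to 52 counts (-0.89, standard error 0.356, adjusted p = 1.0).

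The genes of the junction list around CDH1 were all measured. All 23 of that list passed the filter, with a median log2 fold change of -0.01, from -0.89 for CLDN7 to 0.38 for OCLN, which encodes the tight junction protein occludin. The most abundant of the list was SPINT2, a protease inhibitor and not a junction component, at 334 FPKM, followed by JUP at 99.4 FPKM. The catenins that tie CDH1 to actin were at 49.0 FPKM (CTNNA1) and 39.2 FPKM (CTNNB1), and CTNND1, the p120 catenin that stabilises CDH1 at the membrane, was at 15.6 FPKM, all above CDH1 itself at 7.97 FPKM. The 4 keratins had a median of 0.02 (0.22 with the set of libraries as a term), from -0.07 for KRT18 to 0.14 for KRT7, and KRT8 was the most abundant.

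Regulators of the epithelial state were in part near 0. ESRP1, ESRP2, GRHL2, OVOL1, OVOL2 and RAB25 did not pass the filter, and the highest value among them in any library was 0.09 FPKM. ESRP1 and ESRP2 are splicing factors of epithelial cells, and GRHL2, OVOL1 and OVOL2 are transcription factors that maintain CDH1. The 6 that passed had a median log2 fold change of 0.02, from -0.15 for ELF3, the most abundant at 33.5 FPKM, to 0.64 for KLF4.

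The mesenchymal matrix and cytoskeleton list, to which VIM, FN1 and CDH2 are related by role, had 28 of 33 genes tested and a median log2 fold change of 0.10 (-0.05 with the set of libraries as a term). The lowest value was -0.39, for LOX, a collagen crosslinking enzyme, and S100A4 was the most abundant at 993 FPKM. Among other transcription factors of EMT, 9 of 13 were tested, with a median of 0.05 (0.0081 with the set of libraries as a term), from -0.70 for GSC to 0.45 for HMGA2. TCF3, which encodes the E-box binding proteins E12 and E47, was the most abundant of them at 14.0 FPKM, and TWIST2, the paralog of TWIST1, was at 7.41 FPKM, above TWIST1 itself.

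The corepressors that ZEB and Snail proteins recruit were all expressed, with 10 of 10 tested and a median log2 fold change of 0.08 (-0.06 with the set of libraries as a term). They ranged from -0.04 for CTBP1, the partner of the ZEB proteins, to 0.54 for SUZ12, a polycomb subunit, and HDAC1 was the most abundant at 26.4 FPKM. The 6 genes of Snail turnover, kinases and ubiquitin ligase subunits that mark SNAI1 for degradation, had a median of 0.06 (-0.05 with the set of libraries as a term), from -0.04 for FBXL14 to 0.29 for GSK3B. GSK3A was the most abundant of these at 45.8 FPKM.

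**Figure D4:**
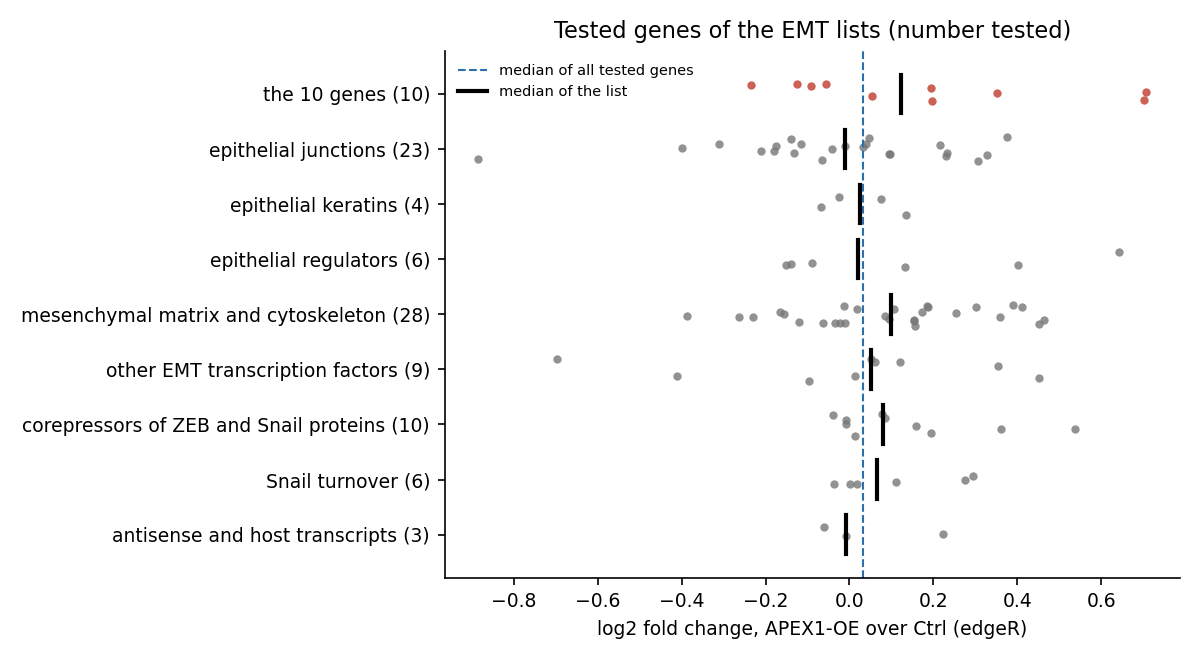
log2 fold change of APEX1-OE over Ctrl in edgeR for each tested gene of the lists (points, with the number tested beside each name), with the median of each list as a black bar and the median of all tested genes (0.03) as a dashed line. List medians lie between -0.01 and 0.12, and no gene was called.

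Antisense transcripts were also read out. VIM-AS1 overlaps 1778 bases of VIM on the other strand and was at 18.6 to 24.0 FPKM (log2 fold change -0.06, standard error 0.192, adjusted p = 1.0 in edgeR). ZEB1-AS1 overlaps 1953 bases of ZEB1 and was at 0.34 to 0.82 FPKM (-0.0076, standard error 0.302, adjusted p = 1.0). ZEB2-AS1 was at most at 0.01 FPKM and was not tested. SNAI3-AS1, named after SNAI3, which is not a member, had a log2 fold change of 0.22. Whether counting used strand is not stated, so that reads of VIM or ZEB1 and of their antisense partners may not have been told apart.

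The genes with the most similar profiles over the 6 libraries were found for CDH1 and VIM by the root-mean-square difference between log2 CPM profiles, each centred on its own mean. For CDH1 they were CDKN1B (0.0360), MCCC1 (0.0361) and MXI1 (0.0431), where the median over all tested genes was 0.415. For VIM, whose profile was nearly flat with a deviation of 0.07, they included RAB2B (0.0299) and ANXA5 (0.0318), against a median of 0.333. CDKN1B, MCCC1 and MXI1 had GC contents of 45.9%, 46.6% and 43.8%, near the 48.2% of CDH1. In these bulk libraries, fewer cells expressing a gene and less RNA of it per cell cannot be told apart.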

How the data were processed

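Per the methods, the authors removed reads holding over 2 N bases, clipped adaptors and poor-quality ends (FASTX-Toolkit 0.0.13), dropped those shorter than 16 nt and mapped the remainder to GRCh38 by tophat2, with 4 mismatches allowed. They deposited raw counts of uniquely mapped reads per gene and FPKM rounded to 2 decimals. The libraries were stranded, paired-end mRNA libraries, and no counting tool or annotation is stated. The authors' methods name edgeR without the test used.

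Counts were analysed in R 4.3.3 with edgeR 4.0.16 (filterByExpr with minimum count 10 and minimum total 15, TMM, robust quasi-likelihood F-test, condition as the only term, Benjamini-Hochberg adjustment over 16971 genes), after a check on simulated counts. The simulated counts had a fixed dispersion and no split into sets of libraries, so that the check does not cover the split seen here. Alternatives were DESeq2 1.42.0, other scalings, no filter, limma 3.58.1 on log2(FPKM + 1) and log2(FPKM + 0.1) for genes with a mean FPKM of at least 0.1, each library left out, the replicate number as a block and the set of libraries as a term. An offset from splines (5 degrees of freedom) on transcript GC content and log2 length was added after seeing the data. log2 CPM used a prior count of 2. Gene positions, transcript length and GC were taken from GENCODE 44 (GRCh38), where 97.0% of gene identifiers were found without version. Promoter windows came from RefSeq. Intervals of counts cover counting error only.

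The members, the lists and the set of libraries were chosen with earlier results of these data known. Named genes were the 10 members, APEX1, the genes of each list that were called, most abundant, or had the highest or lowest log2 fold change, and the 3 nearest profiles of CDH1 and VIM; some genes that this rule names are not reported here. The other genes were named after their values were seen.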

Additional observations from a re-analysis of the deposited data

How the results depend on the processing

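None of the 10 genes was called under any of the 16 alternatives, where the lowest adjusted p was 0.279 (FN1, with the GC and length offset and the set of libraries as a term), and none of the genes of the EMT lists was called either. Without APEX1-OE replicate 2 or 3, or without Ctrl replicate 1 or 2, APEX1 itself was not called. The lack of calls in those fits therefore says little about the 10 genes. Of 160 log2 fold changes of the 10 genes under the alternatives, 147 kept their direction and 13 changed sign. With the set of libraries as a term the signs changed for CDH2 (-0.14), EPCAM (-0.062) and SNAI1 (0.059). With that term and the offset, a setting chosen after seeing the data, they changed for CDH2 (-0.041), EPCAM (-0.0058) and VIM (-0.016). With each library left out in turn, CDH1 ran from -0.37 to 0.073 and FN1 from -0.30 to 0.20, both above 0 without APEX1-OE replicate 1 or Ctrl replicate 3. EPCAM ran from -0.082 to 0.71, below 0 without APEX1-OE replicate 3 or Ctrl replicate 2, and SNAI1 from -0.28 to 0.041, above 0 without APEX1-OE replicate 3. ZEB1 ran from 0.46 to 1.26 and SNAI2 from 0.48 to 0.86. ZEB2 (0.15 to 0.69), CDH2 (0.00078 to 0.49) and VIM (0.016 to 0.098) also stayed above 0, and TWIST1 (-0.35 to -0.11) stayed below 0. The cause of these changes was not tested.

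The number of called genes in the whole table was 1, and 10 without a filter on low counts, 2 in limma on log2(FPKM + 0.1), 2 with the replicate block, 4 with the set of libraries as a term, 22 with that term and the offset, and 0 to 1 with each library left out (0 without APEX1-OE replicate 2 or 3 and without Ctrl replicate 1 or 2, where APEX1 itself was not called). Whether the replicate numbers pair the samples is not stated. Deviations from the group means correlated at 0.607 and 0.700 for numbers 1 and 3 but at -0.521 for number 2, and not every sample correlated best with its own number. The correlations were positive within a set of libraries and negative across sets, so that they cannot show whether samples of equal number were handled together. With the replicate block none of the 10 genes was called. ZEB1 (unadjusted p = 0.00698 in edgeR) and SNAI2 (0.0149) were then under 0.05, 2 of 10 genes against 3.31% of all tested genes. Of all tested genes, 561 had an unadjusted p under 0.05 in edgeR with the block, against 118 without it. All pairs of libraries differed by more than sampling noise (lowest chi-square per degree of freedom 3.86). Depth limits EPCAM most, at 15 to 47 counts per library.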
